A study of Caenorhabditis elegans with 2 samples.

Results

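The genes described are 8 listed GATA-type zinc finger genes, elt-3, elt-1, egl-18, elt-6, elt-2, elt-4, elt-7 and egl-27, of 19973 protein-coding genes. They were chosen by name, and each was given a window of the gene body and 5000 bp upstream. Chromatin immunoprecipitation with sequencing (ChIP-seq) located ELT-3 in whole second-stage (L2) larvae of mixed sex in 2 biological replicates, which form 1 group. The strain OP75 carries unc-119(ed3) on chromosome III and the transgene wgIs75, from which ELT-3 is stably expressed as a fusion with GFP-FLAG at its C terminus. All worms measured therefore carried both the mutation and the transgene, and the labels give the worms' age as unknown and do not state whether the replicates were separate cultures. The labels give no extent, copy number or insertion site of the transgene. No control sample was analysed here to set beside these values.

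GATA factors are transcription factors with a zinc finger that recognises short DNA sites with the core GATA. In Caenorhabditis elegans, ELT-1 specifies the epidermis in the embryo, ELT-3 acts after it in the cuticle-secreting epithelium called the hypodermis, and EGL-18 and ELT-6 act in the seam cells, the lateral stem-like cells of the epidermis. ELT-2 and ELT-7 are the factors of the differentiated intestine, ELT-4 is a small relative of ELT-2, and EGL-27 is a chromatin regulator of the MTA family that carries a GATA-type zinc finger. Worm GATA factors are known for regulating one another's genes.

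The authors deposited 30000 regions for replicate 1, for replicate 2 and for the 2 pooled, described as peaks together with background, and a list of 33 regions that passed their irreproducible discovery rate (IDR) threshold. A region's signal value is the authors' caller's own score, whose scale is not stated, so regions are compared by rank within a list, with 1 as the highest. Pooled signal values had a median of 16.4 and reached 94.8. Those of replicate 1 had a median of 9.85 and reached 48.8, and those of replicate 2 had a median of 9.53 and reached 62.4. The authors' q-value was under 0.05 at 15 pooled regions, at 15 of replicate 2 and at 0 of replicate 1, so most regions of any rank fall short of that threshold. The depth of the libraries is unknown.

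The 8 windows held 41 pooled regions, 45 of replicate 1 and 44 of replicate 2. The highest were in introns of elt-3 and egl-27, which held 3 of the 33 IDR regions. No region of the epidermal gene elt-1 or of the intestinal genes elt-2 and elt-7 was among the 1000 highest of any list. Of the 8 genes, 7 had a pooled region of any rank, where 87.8% of all protein-coding genes had one, so the presence of a region carries little information. A region among the pooled 1000 highest was present at 4 of the 8 genes, namely elt-3, egl-27, egl-18 and elt-6, and at 7.46% of all genes. Long windows catch more regions. Among genes with a window of at least 10000 bp, 3 of the 4 listed genes of that length and 12.9% of all such genes had one. An IDR region was present at 2 of the 8 genes and at 0.19% of all genes, or at 2 of the 4 long listed genes and 0.433% of all long ones. Since the genes were listed with earlier results of these data known, these shares are a description and no test was made.

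The sequences that carry these regions are the 201 bp centred on the pooled summit, given on the plus strand, 5′ to 3′, of WBcel235, the assembly that ce11 names. All 8 genes lie on that strand. Capitals mark GATAA or, on the opposite strand, TTATC. The 5 shown are the 2 IDR regions of elt-3, the IDR region of egl-27, the egl-27 upstream region and the region shared by egl-18 and elt-6, chosen to set summits with GATA sites beside high-ranking summits without one.
elt-3, rank 12, chrX:13937371-13937571: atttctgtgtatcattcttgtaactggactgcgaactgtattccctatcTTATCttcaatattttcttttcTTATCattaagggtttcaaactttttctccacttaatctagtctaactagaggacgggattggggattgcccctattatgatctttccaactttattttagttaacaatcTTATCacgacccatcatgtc
elt-3, rank 31, chrX:13937947-13938147: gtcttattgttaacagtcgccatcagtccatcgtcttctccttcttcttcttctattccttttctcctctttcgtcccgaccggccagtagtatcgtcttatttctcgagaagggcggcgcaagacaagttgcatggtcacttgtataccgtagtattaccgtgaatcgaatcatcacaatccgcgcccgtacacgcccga
egl-27, rank 15, chrII:6842831-6843031: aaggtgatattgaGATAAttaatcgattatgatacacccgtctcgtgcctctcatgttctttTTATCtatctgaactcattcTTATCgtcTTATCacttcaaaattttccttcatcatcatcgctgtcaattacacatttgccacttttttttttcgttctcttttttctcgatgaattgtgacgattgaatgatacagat
egl-27, rank 451, chrII:6830096-6830296: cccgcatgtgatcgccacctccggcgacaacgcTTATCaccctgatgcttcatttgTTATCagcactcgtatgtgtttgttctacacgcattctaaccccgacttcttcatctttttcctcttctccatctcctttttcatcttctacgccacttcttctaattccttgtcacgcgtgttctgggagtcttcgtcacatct
egl-18 and elt-6, rank 233, chrIV:1916986-1917186: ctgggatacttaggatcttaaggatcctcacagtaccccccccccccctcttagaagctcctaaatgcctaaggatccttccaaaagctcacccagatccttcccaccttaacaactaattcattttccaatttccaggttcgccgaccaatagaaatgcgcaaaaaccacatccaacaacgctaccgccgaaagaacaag
The elt-3 sequence of rank 12 holds 3 GATAA sites, 2 of them part of TGATAA, and the egl-27 sequence of rank 15 holds 4, of which 1 is part of TGATAA and 2 of AGATAA. The egl-27 upstream sequence holds 2 sites, both TGATAA. The elt-3 sequence of rank 31 and the sequence shared by egl-18 and elt-6 hold 0. The GC content was 34.8% at the first elt-3 sequence and 33.3% at the egl-27 sequence of rank 15, against a median of 38.8% over all pooled regions. It was 48.8% at the second elt-3 sequence, 47.3% at the upstream egl-27 sequence and 47.8% at the sequence shared by egl-18 and elt-6. Of these 5, the summits that lacked GATAA were both richer in G and C than the median region, and so was 1 of the 3 that held it. Among the high regions not shown, those of elt-3 held GATAA and were also above the median. They had 49.3% (rank 66), 43.3% (rank 94) and 48.3% (rank 402). At egl-27 the region of rank 918 held GATAA and had 36.8%, and that of rank 410 lacked it and had 59.2%. GC content therefore did not separate the high regions by GATAA.

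The gene elt-3 (WBGene00001251) lies on chromosome X from 13934874 to 13941216 and has 6 annotated transcripts. Its window held 9 pooled regions, 9 of replicate 1 and 11 of replicate 2. Per kb of window that was 0.793 in the pooled list, above 97.8% of all genes, 0.793 in replicate 1, above 98.1%, and 0.97 in replicate 2, above 99.5%. The median gene had 0.295, 0.297 and 0.295 regions per kb in the same lists. Among the 9 pooled regions of elt-3, 5 were among the 1000 highest. Only 2 other protein-coding genes had 5 or more such regions, lrp-1 with 8 and unc-89 with 6. The window of elt-3 is 11343 bp long, against 24968 bp for lrp-1 and 60184 bp for unc-89. These 2 genes were named after their values were seen.

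Of the 5 high regions of elt-3, 4 lay in introns within 2164 bp of each other. Their summits were 1009, 2075, 2597 and 3173 bp downstream of the gene start, and the fifth was 4059 bp upstream. The region at 2597 bp had the highest pooled rank of any listed gene, 12, with a signal value of 54.3 and a q-value of 0.0345. Its rank was 5 in replicate 2 (signal value 40.7) and 10877 in replicate 1 (signal value 10.9), close to the replicate 1 median. The region at 3173 bp, pooled rank 31 and signal value 46.3, was the other way round. It ranked 6 in replicate 1 (35.6) and 5010 in replicate 2 (12.8). Each replicate therefore had an elt-3 intron region among its 6 highest, but the summits were 560 bp apart and neither region was high in the other replicate.

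The other 3 high regions of elt-3 also differed in rank between the replicates. The region at 2075 bp had pooled rank 66, 193 in replicate 2 and 2364 in replicate 1, and it overlapped the non-coding RNA genes K02B9.7 and K02B9.8. The region at 1009 bp had pooled rank 402 and the closest ranks, 2132 in replicate 1 and 1396 in replicate 2. The upstream region had pooled rank 94, 84 in replicate 2 and 27224 in replicate 1. A further upstream region ranked 98 in replicate 1 and had no shared summit in replicate 2. It lies inside an annotated pseudogene (WBGene00010494, 13930898 to 13932035) and had pooled rank 2497. Replicate 2 in turn had a region of rank 872 at 4919 bp upstream that replicate 1 lacked. The remaining 2 pooled regions of elt-3, in a coding exon and in the 3′ UTR, ranked 23768 and 15166.

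**Figure D1:**
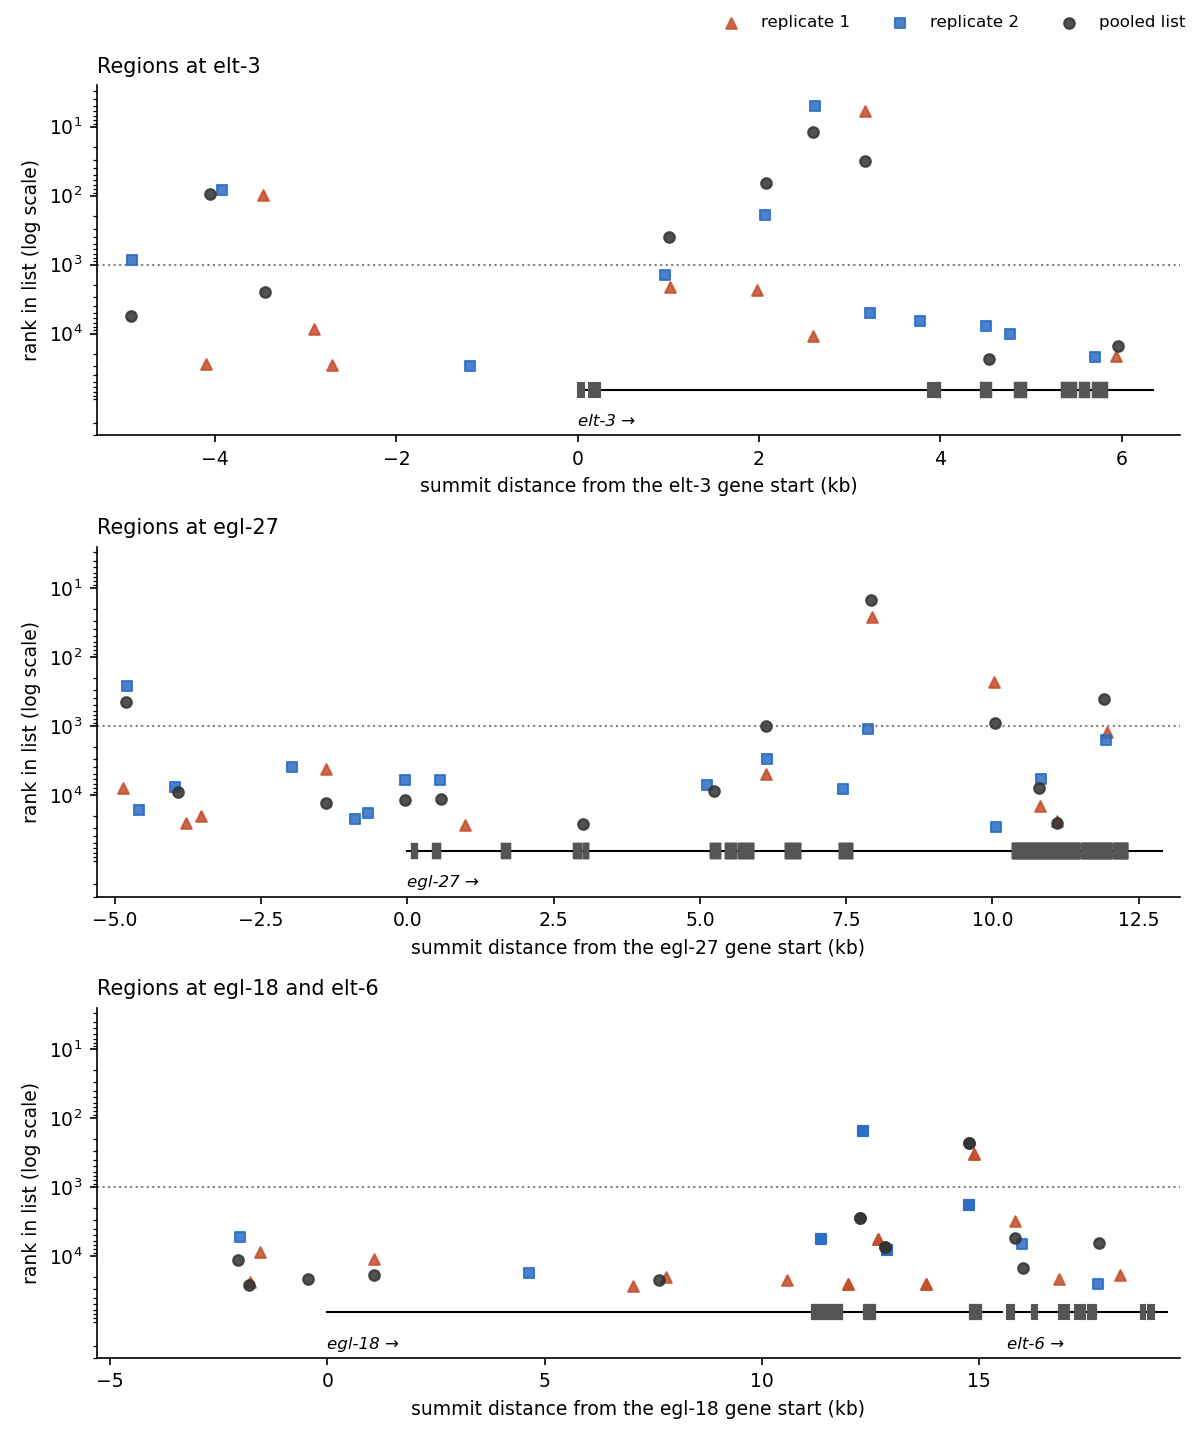
Summits at elt-3, egl-27 and the egl-18 and elt-6 pair by distance from the gene start (kb, horizontal) and rank in each list (vertical, log scale, highest rank at the top). Triangles are replicate 1, squares replicate 2 and circles the pooled list. The bars below are the coding parts of exons, with untranslated parts not drawn as bars, and the dotted line is rank 1000. At elt-3 the highest triangle (rank 6) and the highest square (rank 5) stand at different intron positions, while at egl-27 the highest triangle (rank 26) has a square of rank 1120 near it.

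The gene egl-27 (WBGene00001194), on chromosome II from 6835008 to 6847908, had the most pooled regions of the 8 genes, 13, with 11 in replicate 1 and 15 in replicate 2. Its window is long (17901 bp), but per kb it still stood above 96.3% of all genes in the pooled list (0.726), above 92.1% in replicate 1 (0.614) and above 98.4% in replicate 2 (0.838). Of its pooled regions, 4 were among the 1000 highest. The highest, 7923 bp downstream of the gene start in an intron, had pooled rank 15, a signal value of 51.6 and a q-value of 0.0345. It ranked 26 in replicate 1 (27.6) and 1120 in replicate 2 (17.0). An annotated snoRNA gene, C04A2.16, lies in the same gene from 6843240 to 6843363, beyond the end of that region at 6843105. The TGATAA of this region was 7.5 bp from the summit, measured to the centre of the site, the closest of the 10 TGATAA sites at pooled summits of the listed genes.

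The other high regions of egl-27 lay along the whole window. A summit 4812 bp upstream of the gene, whose region overlaps the ncRNA gene F31E8.9, had pooled rank 451, with rank 262 in replicate 2 and 7921 in replicate 1. A summit 11911 bp downstream of the gene start, in a coding exon, had pooled rank 410, with ranks 1243 in replicate 1 and 1600 in replicate 2. An intron summit at 10047 bp had pooled rank 918, with rank 228 in replicate 1 and 29682 in replicate 2, near the end of that list. The exon region was thus close in both replicates and held no GATAA within 100 bp, whereas the intron region was high in replicate 1 alone and held 1 TGATAA. A region just under rank 1000, at 1015, lay in an intron at 6127 bp and ranked 4930 in replicate 1 and 3017 in replicate 2.

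The genes egl-18 (WBGene00001186, chromosome IV, 1902322 to 1917840) and elt-6 (WBGene00001253, 1917977 to 1921643) lie one after the other, so the upstream window of elt-6 falls inside egl-18 and they share 3 pooled regions. Their highest pooled region is among these, with rank 233 and a signal value of 34.3. Its summit lies in an intron of egl-18, 14764 bp from the egl-18 start and 891 bp upstream of elt-6, so the region cannot be assigned to 1 of the genes. It ranked 333 in replicate 1 (20.3) and 1810 in replicate 2 (15.6), so it was among the 2000 highest of both. A second shared region, 3388 bp upstream of elt-6, had pooled rank 2799 and rank 152 in replicate 2, where it was the highest of the pair, and replicate 1 had no summit there. In all, egl-18 had 8 pooled regions, 10 of replicate 1 and 6 of replicate 2, and elt-6 had 6, 7 and 6. Per kb elt-6 stood above 95.2% of all genes and egl-18, with the longest window of the 8 (20519 bp), above 68.9%.

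The gene elt-1 (WBGene00001249), on chromosome IV from 9614995 to 9620280, had 5 pooled regions, 7 of replicate 1 and 4 of replicate 2, and none was among the 1000 highest of any list. Its best ranks were 1193 in the pooled list (27.5), 3138 in replicate 1 (14.4) and 3735 in replicate 2 (13.7). The pooled region, 3294 bp upstream of the gene at the ncRNA gene W09C2.11, ranked 6201 in replicate 1 and 5763 in replicate 2. Those 2 ranks were the closest of any shared summit at the 8 genes.

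The intestinal genes elt-2 and elt-7 had the lowest best ranks of the 8 in the pooled list, where elt-7 had no region. The small gene elt-4, a relative of elt-2, ranked higher. The gene elt-2 (WBGene00001250, chromosome X, 10481240 to 10483441) had 1 pooled region, 1 of replicate 1 and 3 of replicate 2, with best ranks of 18266, 25193 and 9992. Its pooled region lies 4024 bp upstream, inside the gene C39B10.7, and holds 1 TGATAA. For elt-7 (WBGene00015981, chromosome V, 4770670 to 4773086) the pooled list had 0 regions, and each replicate had 1, of ranks 25051 and 17132 and at different places. The highest rank of either gene in any list was thus 9992, of elt-2 in replicate 2, where 52.3% of all genes had a higher best rank.

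The small gene elt-4 (WBGene00001252, chromosome X, 10475527 to 10475959), which lies just before elt-2, had 2 pooled regions, 3 of replicate 1 and 2 of replicate 2. Its pooled summit 13 bp upstream of the gene start had rank 1343 (27). The shared summit there ranked 126 in replicate 1 (22.6) and 29893 in replicate 2 (7.06), among the last of that list, where the best region of elt-4 ranked 9956. The other region of elt-4 in the pooled list ranked 21490.

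**Figure D2:**
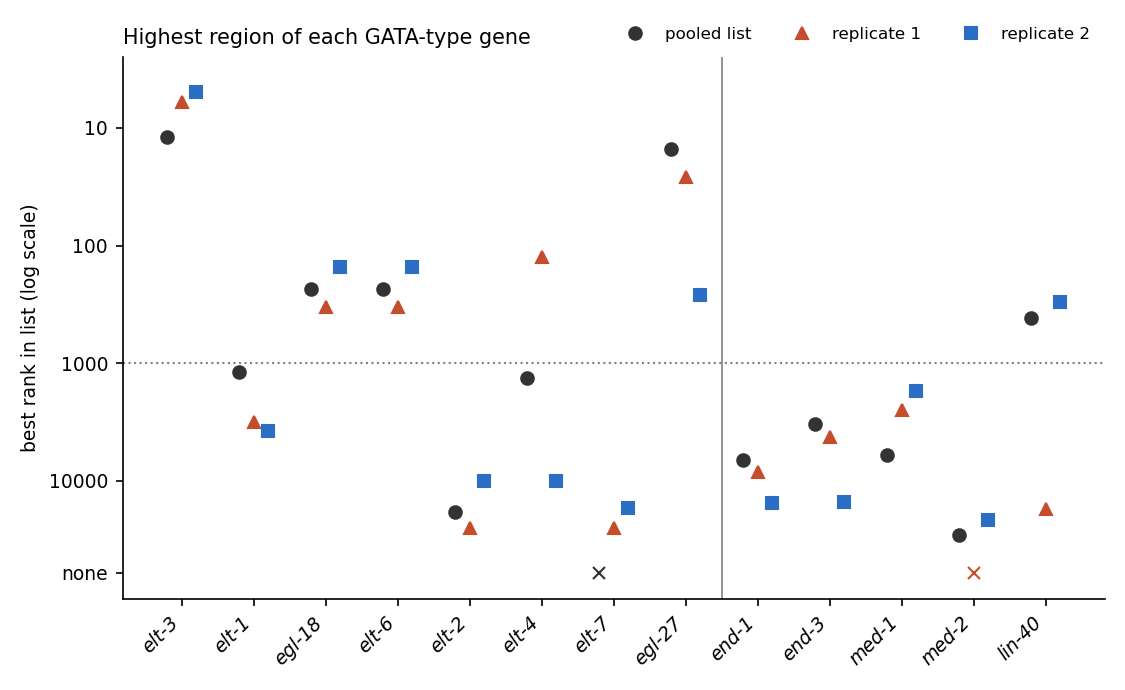
The best rank of each gene's regions (vertical, log scale, highest rank at the top) in the pooled list (circles), replicate 1 (triangles) and replicate 2 (squares), with crosses where a list had no region in the window. The 8 listed genes stand left of the vertical line and 5 other GATA-type genes right of it. All 3 symbols of elt-3, egl-27, egl-18 and elt-6 lie above the dotted line at rank 1000, and those of elt-1, elt-2 and elt-7 all lie below it.

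Across the 8 genes, 10 of 41 pooled regions were among the 1000 highest (24.4%, 95% Wilson interval 13.8 to 39.3%), against 3.33% of the whole list. Intervals cover the counting of regions alone, and regions of 1 gene are not independent. The 10 were 5 of elt-3, 4 of egl-27 and 1 of egl-18 and elt-6. Without elt-3, the gene that the transgene carries, 5 of 32 were (15.6%, 6.86 to 31.8%), and without egl-27 as well 1 of 19 (5.26%), so the high share came from these 2 genes. In the single replicates the shares were lower, 6 of 45 in replicate 1 (13.3%, 6.26 to 26.2%) and 6 of 44 in replicate 2 (13.6%, 6.4 to 26.7%). Without elt-3 they were 4 of 36 (11.1%, 4.41 to 25.3%) and 2 of 33 (6.06%, 1.68 to 19.6%), and the interval of replicate 2 includes the 3.33% of the whole list. The median signal value at the 8 genes was 19.6 against 16.4 over the pooled list, 9.92 against 9.85 in replicate 1 and 11.9 against 9.53 in replicate 2. The median region of these genes thus stood above that of the list in the pooled list and in replicate 2, and close to it in replicate 1. Without elt-3 the medians were 19.0 in the pooled list, 9.39 in replicate 1 and 11.7 in replicate 2, so that of replicate 1 fell below its list. The q-value was under 0.05 at only 2 of the 41 pooled regions, those of rank 12 and 15. It was 0.213 to 0.792 at the other pooled regions of these genes among the 1000 highest.

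In replicate 1, 5 of the 8 genes had a region among its 1000 highest, with elt-4 as the fifth, against 7.62% of all genes. In replicate 2, 4 did, against 7.28%. The same 4 genes, elt-3, egl-27, egl-18 and elt-6, had one among the 1000 highest of each replicate somewhere in the window, against 1.59% of all genes. When the same summit had to be among the 1000 highest of both, within 150 bp, 0 of the 8 genes had one, against 0.481% of all genes. Among the 2000 highest of both, 3 did, egl-27 by its regions of pooled rank 15 and 410 and egl-18 and elt-6 by the region they share, against 1.26% of all genes, or 2 of 4 against 2.41% for long windows. Both replicates thus ranked the same 4 genes high, egl-18 and elt-6 through regions they share, but mostly at different positions. Over all genes that was also usual. Of 318 genes with a region among the 1000 highest of each replicate, 96 had a shared summit there.

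The share of summits at the 8 genes that were matched between the replicates had an interval that included the share over all regions at a distance of 150 bp in the whole lists. A replicate 2 summit lay within 150 bp of 15 of 45 replicate 1 summits (33.3%, 21.4 to 47.9%), against 23.5% of all replicate 1 regions (23.1 to 24.0%). Without elt-3 the share was 11 of 36 (30.6%). Within 300 bp it was 23 of 45 (51.1%), against 34.5% of all regions. Among the upper 15000 of each list it was 12 of 23 (52.2%), against 16.6%, so the size of the difference from all regions depended on this choice. By gene, 6 of 11 were matched at egl-27, 4 of 9 at elt-3, 2 of 7 at elt-1 and at elt-6, 1 of 10 at egl-18, 1 of 3 at elt-4, and 0 of 1 at elt-2 and at elt-7. Of the 41 pooled regions, 17 had a summit in both replicates (41.5%, against 24.0% of all pooled regions), and 2 had one in neither (4.88%, against 12%). All 10 of the high pooled regions had a summit in both, as did 86.4% of the pooled 1000 highest. At the elt-3 region of rank 94 the summits of the replicates lay on either side of the pooled one and over 150 bp from each other, so they are not among the matched pairs.

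Summits that were matched often differed in rank. The larger of the 2 ranks of a shared summit divided by the smaller had a median of 5.93 over the 15 pairs at the 8 genes, against 2.19 over all 7064 pairs. Where either rank was among the 1000 highest, the median was 86.6 over 8 pairs, against 22.1 over 747. The largest ratios at the 8 genes were 2180 and 835, at the elt-3 regions of pooled rank 12 and 31, and in the whole comparison 1 and 6 pairs had a larger one. Next came elt-4 with 237, egl-27 at 10047 bp with 130 and the highest egl-27 region with 43.1. The smallest were 1.08 at the upstream elt-1 region, 1.29 at the egl-27 exon region and 1.53 at the elt-3 region 1009 bp from the start. A rank beyond 5000 in 1 replicate was found for 5 of the 10 high pooled regions, 3 times in replicate 1 and 2 times in replicate 2.

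**Figure D3:**
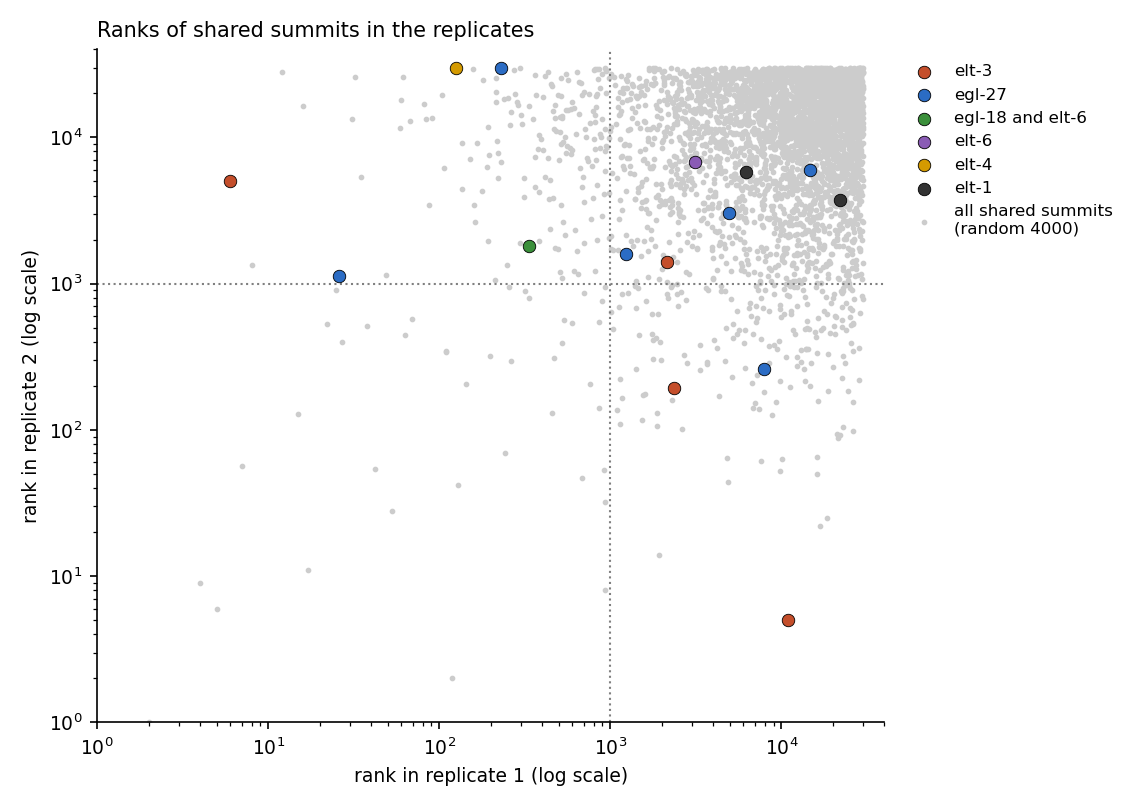
Rank in replicate 1 (horizontal) against rank in replicate 2 (vertical) of summits shared within 150 bp, both on log scales. Coloured points are the 15 pairs at the listed genes and grey points a random 4000 of all 7064 pairs. No coloured point lies below rank 1000 on both axes, and the 2 elt-3 pairs with ratios of 2180 and 835 lie near opposite edges.

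More of the regions lay in introns than over all genes. Counting each gene and region pair once, 19 of 44 pooled pairs lay in introns (43.2%), against 18.4% over all genes, and 18 lay upstream (40.9%), against 57.1%. The intron share was 42.9% against 18.6% in replicate 1 and 37.5% against 18.7% in replicate 2. Coding exons held 6 (13.6%, against 21.7%). Of the 10 high regions, 7 lay in introns, 1 in a coding exon and 2 upstream, with the region shared by egl-18 and elt-6 counted by its place in egl-18. That region also lies upstream of elt-6, and its replicate 1 summit lies in a coding exon of egl-18. The share of each gene that is intron was not taken into account, and elt-3, egl-18 and egl-27 have long introns.

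The motif TGATAA on either strand, with its centre within 100 bp of the summit, was present at 8 of 41 pooled regions of the 8 genes (19.5%, 10.2 to 34.0%), against 16.7% of all pooled regions and 19.7% of the 1000 highest. In replicate 1 the share was 8 of 45 (17.8%) against 16.7%, and in replicate 2 it was 14 of 44 (31.8%, 20 to 46.6%) against 17.9%. The shorter motif GATAA, which includes TGATAA and AGATAA, was present at 19 of 41 pooled regions (46.3%, 32.1 to 61.3%) against 35.9%, and AGATAA at 6 (14.6%) against 10.5%. For GATAA the shares were 15 of 45 (33.3%) against 36.1% in replicate 1 and 24 of 44 (54.5%, 40.1 to 68.3%) against 37.5% in replicate 2. The intervals for TGATAA and GATAA include the shares of the whole list in the pooled list and in replicate 1, and lie above them in replicate 2. In the pooled list TGATAA was present at 6 of the 10 regions of these genes among the 1000 highest (60%, 31.3 to 83.2%) and at 2 of the other 31 (6.45%). The 6 were 3 of elt-3 and 3 of egl-27. In the single replicates the share at the high regions was also above that at the others, by a smaller margin and over only 6 high regions each. The motif was present at 2 of 6 high and 6 of 39 other regions in replicate 1, and at 3 of 6 high and 11 of 38 other regions in replicate 2. A match is a description of the letters and not a bound site.

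Regions were dense over a stretch wider than elt-3 itself. Within 20 kb on either side of the gene start there were 33 pooled regions, 26 of replicate 1 and 33 of replicate 2, against a median of 12 over all genes in each list. Those counts were above 99.9%, 99.5% and 99.9% of all genes. Of them 8, 7 and 7 were among the 1000 highest of their lists. In 5 kb bins, each of the 6 bins from 20 kb upstream to 10 kb downstream of the start held 3 to 8 pooled regions, 3 to 5 of replicate 1 and 3 to 7 of replicate 2. The mean bin of chromosome X held 1.52 ± 1.2 pooled regions (SD over 3543 bins). In the other 18 bins out to 60 kb the counts were lower on average but overlapped. The pooled mean was 5.0 per bin in the 6 and 1.06 in the 18, where no bin held more than 3. In replicate 1 the means were 3.83 and 1.28, with up to 4 in an outer bin, and in replicate 2 they were 4.83 and 1.22, with up to 3. The limits of this stretch were chosen after the profile was seen.

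The dense stretch takes in the neighbours upstream, meg-2, meg-1 and ekl-5, which lie on the opposite strand, and it ends before alg-1 downstream. These neighbours lie outside the window of elt-3 and were not among the genes planned to be named. The best region of meg-1 and meg-2 ranked 24 in the pooled list, 7 in replicate 1 and 57 in replicate 2. It lies 5880 bp upstream of the elt-3 start, just outside the window used for elt-3, and within 60 kb of that start it was the only shared summit among the 1000 highest of both replicates. Of the other 7 genes, egl-27 came closest, with 27, 22 and 27 regions within 20 kb in the same order of lists, above 99.4%, 97.8% and 99.5% of all genes. The counts at elt-1 were 13, 20 and 13, at egl-18 16, 18 and 14, at elt-6 13, 18 and 8, and at elt-7 9, 10 and 7. At elt-2 they were 6, 8 and 15 and at elt-4 5, 9 and 14. Dense surroundings were not particular to elt-3 among the genes compared. The epidermal regulator grh-1, described below, had 26, 26 and 27, above 99.2%, 99.5% and 99.5% of all genes. In replicate 1 that equalled elt-3. Its fellow nhr-23 had 24, 17 and 24, and the other epidermal regulators had fewer in every list. The strain carries an elt-3 transgene, and its part in the regions at and around elt-3 was not tested.

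**Figure D4:**
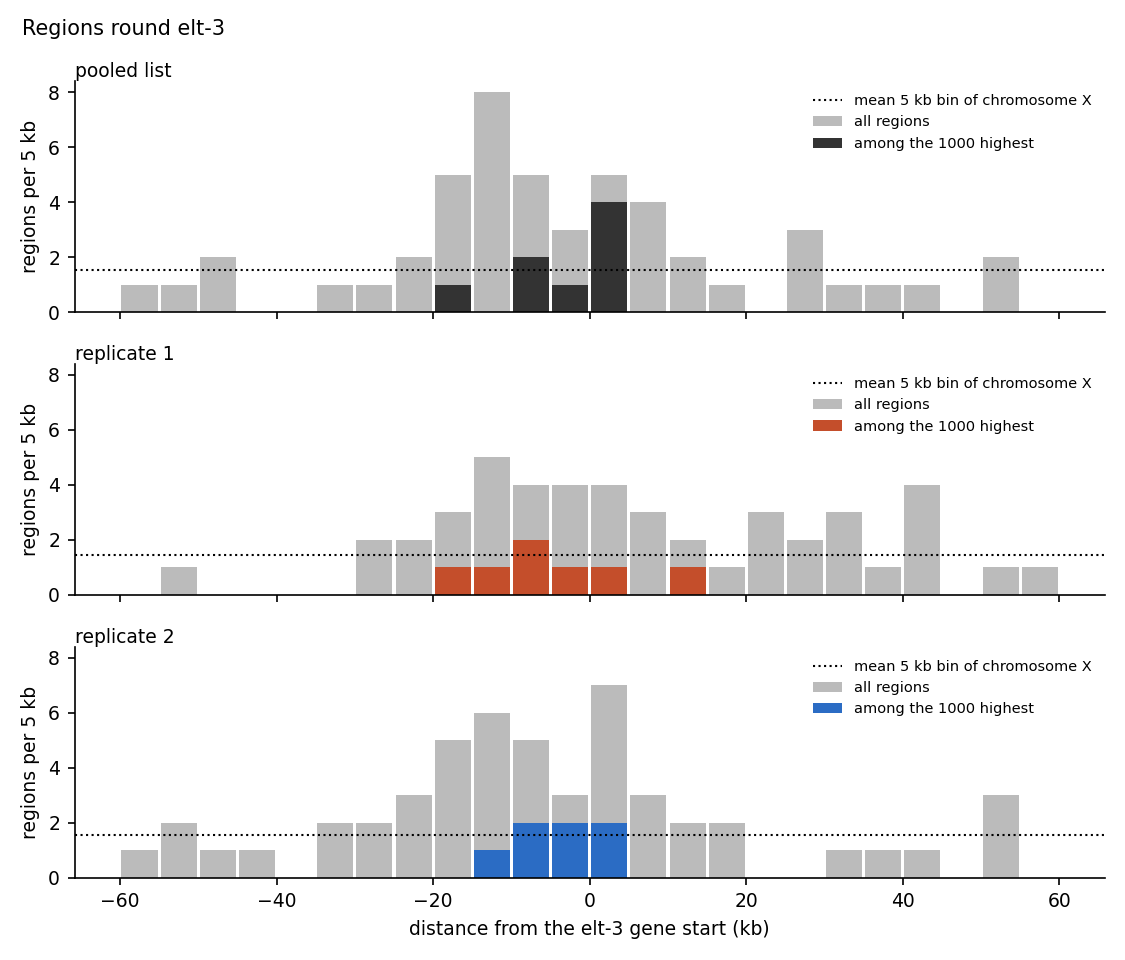
Regions per 5 kb bin (vertical) by distance from the elt-3 gene start (kb, horizontal) in the pooled list and the 2 replicates. Grey bars count all regions, dark or coloured bars those among the 1000 highest of the list, and the dotted line is the mean bin of chromosome X. In all 3 lists every bin from 20 kb upstream to 10 kb downstream of the start holds at least 3 regions.

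For comparison, 5 other GATA-type genes were set beside the 8. The genes end-1, end-3, med-1 and med-2 act in the early embryo in the specification of endoderm, and lin-40 is a second gene of the MTA family. All 5 had a pooled region, against 87.8% of all genes, and 1 had one among the pooled 1000 highest, against 7.46%. The 1 was lin-40, with rank 412 in the pooled list (31.9), 302 in replicate 2 (20.3) and 17464 in replicate 1 (9.33). The best pooled ranks of the embryonic genes were 6623 for end-1, 3281 for end-3, 5967 for med-1 and 28587 for med-2. The genes med-1 and med-2 are near-identical copies, so their values are uncertain where reads could be split between them. None of the 5 had an IDR region or a shared summit among the 2000 highest of both replicates, where 0.19% and 1.26% of all genes had one. Their absence at 5 genes, lin-40 included, therefore carries little information. The other MTA-family gene, egl-27, had both.

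Of 9 epidermal regulators (lin-26, nhr-25, nhr-23, ceh-16, rnt-1, bro-1, blmp-1, grh-1 and lin-29), all had a pooled region, against 87.8% of all genes. A region among the pooled 1000 highest was present at 2, against 7.46% of all genes. The 2 were nhr-23, a nuclear receptor of the moulting cycle, with rank 244 (34.2), and grh-1, the worm Grainyhead factor of epithelial barriers, with rank 642 (30.0). In replicate 1 none of the 9 was among the 1000 highest, against 7.62% of all genes. In replicate 2 nhr-23 was, with rank 391, against 7.28% of all genes. No gene of this list had an IDR region or a shared summit among the 2000 highest of both. Since only 0.19% and 1.26% of all genes had one, that absence carries little information at 9 genes. At unc-119, the gene mutated in the strain, there were 4 pooled regions, 4 of replicate 1 and 1 of replicate 2, with best ranks of 13959, 1937 and 27677.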

How the data were processed

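ChIP-seq of tagged ELT-3 was deposited for 1 group of 2 biological replicates of L2 larvae. Per the labels, regions were listed for each replicate and for both pooled, called against 1 control alignment, as peaks with background for IDR analysis, and in a thresholded IDR list. The authors deposited a signal value, their caller's own score of unstated scale, and the q-value as −log10 of q. The p-value column was unset. Not given in the sources used here are the aligner, caller, IDR threshold and read totals, so the depth is unknown.

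The ce11 lists (30000 regions each; regions of 350, 356 and 370 bp in the pooled list, replicate 1 and replicate 2) were used with Ensembl release 115 genes and the RefSeq WBcel235 sequence; the ce10 lists were not used, and nothing was converted. Regions were ranked by signal value and assigned by summit to the gene body plus 5000 bp upstream. High regions were the 1000 highest of a list, and summits within 150 bp were shared. Place was read from all transcripts of the gene, and motifs were searched on both strands.

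The members, lists, windows and rules were chosen with earlier results of these data known, so counts stand beside the same over all genes or regions, without tests. Named were the 8 genes, 5 other GATA-type genes, 9 epidermal regulators, unc-119, genes in the members' windows and the 3 genes most like elt-3 in best rank; other names are marked where they occur. The code that matches summits was run on simulated, evenly spaced regions, with shared summits planted within the matching distance. It found 100% of 200 planted shared regions among 3000, which checks the code and not how well summits match in the real lists. Alternatives changed the window, the number and ranking of regions, the distances, the motif and the replicates. Python 3.11.15, numpy 2.4.6, pandas 2.3.3, scipy 1.17.1 and matplotlib 3.10.9 were used.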

Additional observations from a re-analysis of the deposited data

How the results depend on the processing

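Of 54 alternatives tried on 8 results, 40 left the value within 1.5 times or its interval, and 14 moved it, with the cause not tested unless the alternative itself shows it. Gene bodies alone held 26 pooled regions against 41. The count of genes with a summit among the 1000 highest of both replicates, 0, became 1 with 10000 bp upstream, which takes in the region 5880 bp before elt-3, and 3 with the 2000 highest. With a single replicate no summit can be shared, so the count was of genes with any region among its 1000 highest. That was 4 in replicate 2 and 5 in replicate 1, against 7.28% and 7.62% of all genes. Both are counted among the 14, though they are another measure. The share of replicate 1 summits matched in replicate 2, 33.3%, was 17.8% within 50 bp, 51.1% within 300 bp and 52.2% among the upper 15000 of each list, against 11.3%, 34.5% and 16.6% of all regions. The share with a motif, 19.5%, was 39.0% for TGATAA anywhere in the region and 46.3% for GATAA, against 27.3% and 35.9% of all regions. Within 10 kb of elt-3 there were 17 pooled regions, against 33 within 20 kb. Of the pooled regions at the 8 genes, 24.4% were among the 1000 highest, against 5.26% without elt-3 and egl-27 and 13.3 to 13.6% in single replicates, alternatives chosen after seeing the data.

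No paired analysis was possible because the design has 1 group. With 2 replicates, no control sample and unknown depth, the spread of a region's signal cannot be separated from its counting error. The deposited lists end at 30000 regions, and what lies below that rank is not known.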

Other observations

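The genes whose best ranks in the replicates were most like those of elt-3 (6 in replicate 1 and 5 in replicate 2) were found among 16111 protein-coding genes with a region in both lists. By the distance between log10 ranks, ZK899.5 came first at 0.11, with ranks 5 and 6, and brc-1 and rpl-3 followed at 0.31 with ranks 4 and 9, both by the same region. The best summits of the replicates lay 560 bp apart at elt-3, against 40 bp at ZK899.5 and 17 bp at brc-1 and rpl-3. Of 22 genes with a best rank of 100 or higher in both replicates, 11 had best summits within 150 bp of each other, and 11, elt-3 among them, had them further apart.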
